A study of Mus musculus with 8 samples.

Results

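Chil3, Chil1, Arg1, Mrc1, Retnla, Mgl2 and Clec10a are genes of chitinase-like proteins and of the alternative activation programme of macrophages, and their levels were compared between blood and allograft libraries on day 7 post-transplantation. The 7 genes were taken by name from the 24405 genes listed in 8 single-cell libraries, and all 7 were listed in at least 1 library. They were read in cells with at least 500 UMIs (unique molecular identifiers, each marking 1 captured transcript). Cells with at least 1 UMI of Csf1r, the receptor of monocytes and macrophages, are called Csf1r cells, and cells with at least 1 UMI of Csf3r, the receptor of neutrophils, are called Csf3r cells. T cells had at least 2 UMIs of T cell receptor or CD3 genes and no UMI of either receptor, and B cells were chosen in the same way from Cd79a, Cd79b and Ms4a1. T and B cells should lack the 7 genes, so their values were taken as a background. It can hold free RNA as well as RNA of mixed barcodes or of other cells that pass these gates, and these sources were not told apart.

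The libraries came from BALB/c hearts, livers and kidneys grafted into C57Bl6/J recipients that received no immunosuppressive drug, and the labels of every library give BALB/c, male and 8 weeks. The liver graft replaced the recipient's liver, whereas the heart and kidney grafts were added beside the native organs. Each organ gave 1 library of peripheral blood mononuclear cells (PBMCs) and 1 of lymphocytes isolated from the graft on a density gradient, called TILs in the study, and liver and kidney also gave 1 of parenchymal cells (PCs). Heart PCs were not analysed here. A pair of recipients per organ was used, and the sources used do not say whether both are in each library or whether a cell came from donor or recipient.

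Alternative activation is the response of macrophages to the cytokines IL-4 and IL-13, which signal through their receptors and the factor STAT6 and raise a set of genes that in mice includes Chil3, Arg1, Retnla, Mrc1, Mgl2 and Clec10a. Chil3 is also a product of immature neutrophils and of monocytes, Chil1 is stored by neutrophils, and Arg1 is a urea cycle enzyme of hepatocytes as well as an enzyme of myeloid cells, so none of the 3 marks alternative activation by itself. Mrc1 is a mannose receptor of tissue macrophages and of liver sinusoidal endothelium.

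Of 80000 barcodes, 47542 held at least 500 UMIs, between 795 in kidney PC and 10000 in liver PC, and library totals ran from 3418722 to 19171264 UMIs. The Csf1r gate held 8462 cells, the Csf3r gate 10217 and both gates 1627, with 19527 T cells and 407 B cells. The kidney libraries were thin, with 49, 109 and 84 Csf1r cells in PBMC, TIL and PC. Any pair of libraries shared between 123 and 617 cell barcodes, and 8112 cells carried a barcode found in another library. The tissue libraries labelled heart TIL and liver TIL ran against their labels, because 8 hepatocyte genes reached 629 CPM (UMIs of a gene for every 1000000 UMIs) in the library labelled heart TIL, 185 in the library labelled liver TIL and 398 in liver PC, whereas 5 cardiomyocyte genes reached 23.1, 118 and 25.7. In the library labelled liver TIL the hepatocyte UMIs were of Ass1 apart from 17 of Apoa2 and 1 of Fgb, and albumin had 0. The libraries labelled heart TIL and liver TIL are named by their labels throughout, and counts of calls that rest on them are also given without them. The Csf1r cells were mixed: 58.3%, 50.3% and 20.4% of those in heart, liver and kidney PBMC held a Csf3r UMI, and 74.0%, 58.4% and 76.9% of those in the libraries labelled heart TIL and liver TIL and in liver PC held at least 2 T cell UMIs.

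All 7 genes are protein coding, and the positions are on GRCm38 from GENCODE. Chil3 lies on the minus strand at chr3:106147554-106167564 and Arg1 on the minus strand at chr10:24915221-24927484. On the plus strand lie Chil1 at chr1:134182176-134190181, Mrc1 at chr2:14229392-14332057, Retnla at chr16:48842551-48844461, Mgl2 at chr11:70130329-70137550 and Clec10a at chr11:70156197-70170834. Mgl2 and Clec10a are neighbours that encode galactose-type lectins of the same family. Of the 50-base stretches in the last 500 bases of their transcripts, 15.6% of those of Clec10a also occurred in a transcript of Mgl2 but 0 of the 706 of Mgl2 in one of Clec10a, and 15.4% of those of Chil3 also occurred in its neighbour Chil4, so reads of Clec10a and Chil3 from such stretches were open to removal as multi-aligned. Chil4 itself had 1 UMI in Csf1r cells of kidney PBMC, 1 in those of liver PC and 0 in the other 6 libraries.

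Sequences before the gene starts are shown for Chil3, the member with the most UMIs, and for Mrc1 and Retnla, the members whose 250 bases before the start held a searched motif. The motifs were a STAT6-type (TTC and GAA with any 4 bases between them), a C/EBP-type TTNNGCAA and a PU.1-type GAGGAAG, searched on both strands, and they occurred in 5.85%, 9.56% and 10.6% of 32851 windows of the same length. Capitals mark the matches, the sequences are from RefSeq on GRCm38.p6, and bases inside annotated transcripts were left off.
Chil3, minus strand, chr3:106167565-106167814: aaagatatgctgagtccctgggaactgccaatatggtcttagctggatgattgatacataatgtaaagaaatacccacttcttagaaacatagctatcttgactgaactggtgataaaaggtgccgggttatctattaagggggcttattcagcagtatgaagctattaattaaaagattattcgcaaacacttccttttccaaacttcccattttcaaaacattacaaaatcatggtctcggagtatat
Mrc1, plus strand, chr2:14229164-14229391: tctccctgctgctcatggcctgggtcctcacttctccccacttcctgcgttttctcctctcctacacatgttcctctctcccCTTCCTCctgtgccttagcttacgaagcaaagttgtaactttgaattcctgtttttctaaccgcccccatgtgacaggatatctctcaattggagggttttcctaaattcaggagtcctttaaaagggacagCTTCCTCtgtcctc
Retnla, plus strand, chr16:48842359-48842550: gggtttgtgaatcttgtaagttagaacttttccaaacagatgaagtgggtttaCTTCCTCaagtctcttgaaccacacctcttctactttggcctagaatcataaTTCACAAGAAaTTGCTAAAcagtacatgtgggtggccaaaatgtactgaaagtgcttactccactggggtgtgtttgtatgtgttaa
The Retnla window held all 3 motifs, a PU.1-type match that began 197 bases, a STAT6-type match 145 bases and a C/EBP-type match 134 bases before the RefSeq start. The Mrc1 window held 2 PU.1-type matches, 168 and 36 bases before its RefSeq start, and the windows of Chil3, Chil1 and Mgl2 held none of the 3. A match is a run of letters and was not read as a bound site.

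Chil3 encodes Ym1, a secreted chitinase-like lectin, and was highest in blood Csf1r cells. Blood Csf1r cells held 7368 CPM (95% Poisson interval 7182 to 7557) in the heart group, 6871 CPM (6702 to 7044) in the liver group and 1436 CPM (1110 to 1827) in the kidney group. Among tissue libraries, the one labelled heart TIL held 3594 CPM (3509 to 3681), the one labelled liver TIL 746 CPM (706 to 789) and kidney TIL 224 CPM (133 to 354). Liver PC held 3762 CPM (3717 to 3807) and kidney PC 279 CPM (156 to 460). Within each organ the blood library was therefore the highest, while the kidney PBMC level lay below that of liver PC and of the library labelled heart TIL. Each group was 1 library, so groups were compared by size with no test, except for TIL against PBMC over the 3 organs, and all intervals cover counting error only. Neighbours in the order whose intervals overlapped were kidney TIL and kidney PC.

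T cells also carried Chil3. In T cells it reached 3267, 2319 and 89.7 CPM in heart, liver and kidney PBMC and 2589, 569 and 73.9 CPM in the TIL libraries, in the order of the labels. In liver PC it reached 1765 CPM and in kidney PC 186 CPM. The ratio of Csf1r over T cells was 2.25 (2.14 to 2.38), 2.96 (2.71 to 3.24) and 16.002 (11.1 to 23.2) in heart, liver and kidney PBMC. For TILs it was 1.39 (1.35 to 1.43), 1.31 (1.22 to 1.41) and 3.03 (1.72 to 5.07) where labelled heart, liver and kidney, and for PCs 2.13 (2.09 to 2.17) in liver PC and 1.504 (0.796 to 2.67) in kidney PC. Chil3 thus stood at least 2-fold above T cells in the 3 PBMC libraries, kidney TIL and liver PC, and less than 2-fold above them in the other 3. B cells carried it as well, at 3578 CPM in heart PBMC and 3463 CPM in liver PBMC.

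The share of Csf1r cells with a Chil3 UMI was taken after each cell was thinned to 500 UMIs. It was 85.3%, 81.2% and 28.6% in heart, liver and kidney PBMC, beside 70.9%, 60.9% and 4.04% of T cells. It was 68.4% beside 61.8% in the library labelled heart TIL, 25.0% beside 22.6% in the library labelled liver TIL, 7.34% beside 4.06% in kidney TIL, 63.7% beside 45.7% in liver PC and 15.5% beside 7.99% in kidney PC. By share the library labelled heart TIL thus lay above liver PC, whereas by CPM it lay below. The 7 mature neutrophil genes S100a8, S100a9, Retnlg, Cxcr2, Mmp9, Ly6g and Il1r2 stood at 135892, 60170 and 24524 CPM in T cells of heart, liver and kidney PBMC. The T gate of heart PBMC thus held much neutrophil RNA. Among all cells of that library these genes stood at 196346 CPM in those with a Chil3 UMI and 192864 CPM in those without. They stood at 6551, 5815 and 85.7 CPM in T cells of the TIL libraries in the order of the labels, 7138 CPM in liver PC and 133 CPM in kidney PC. Their order was not that of Chil3 in T cells, which was lower in kidney PBMC than in kidney PC, and their part in it was not tested.

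**Figure D1:**
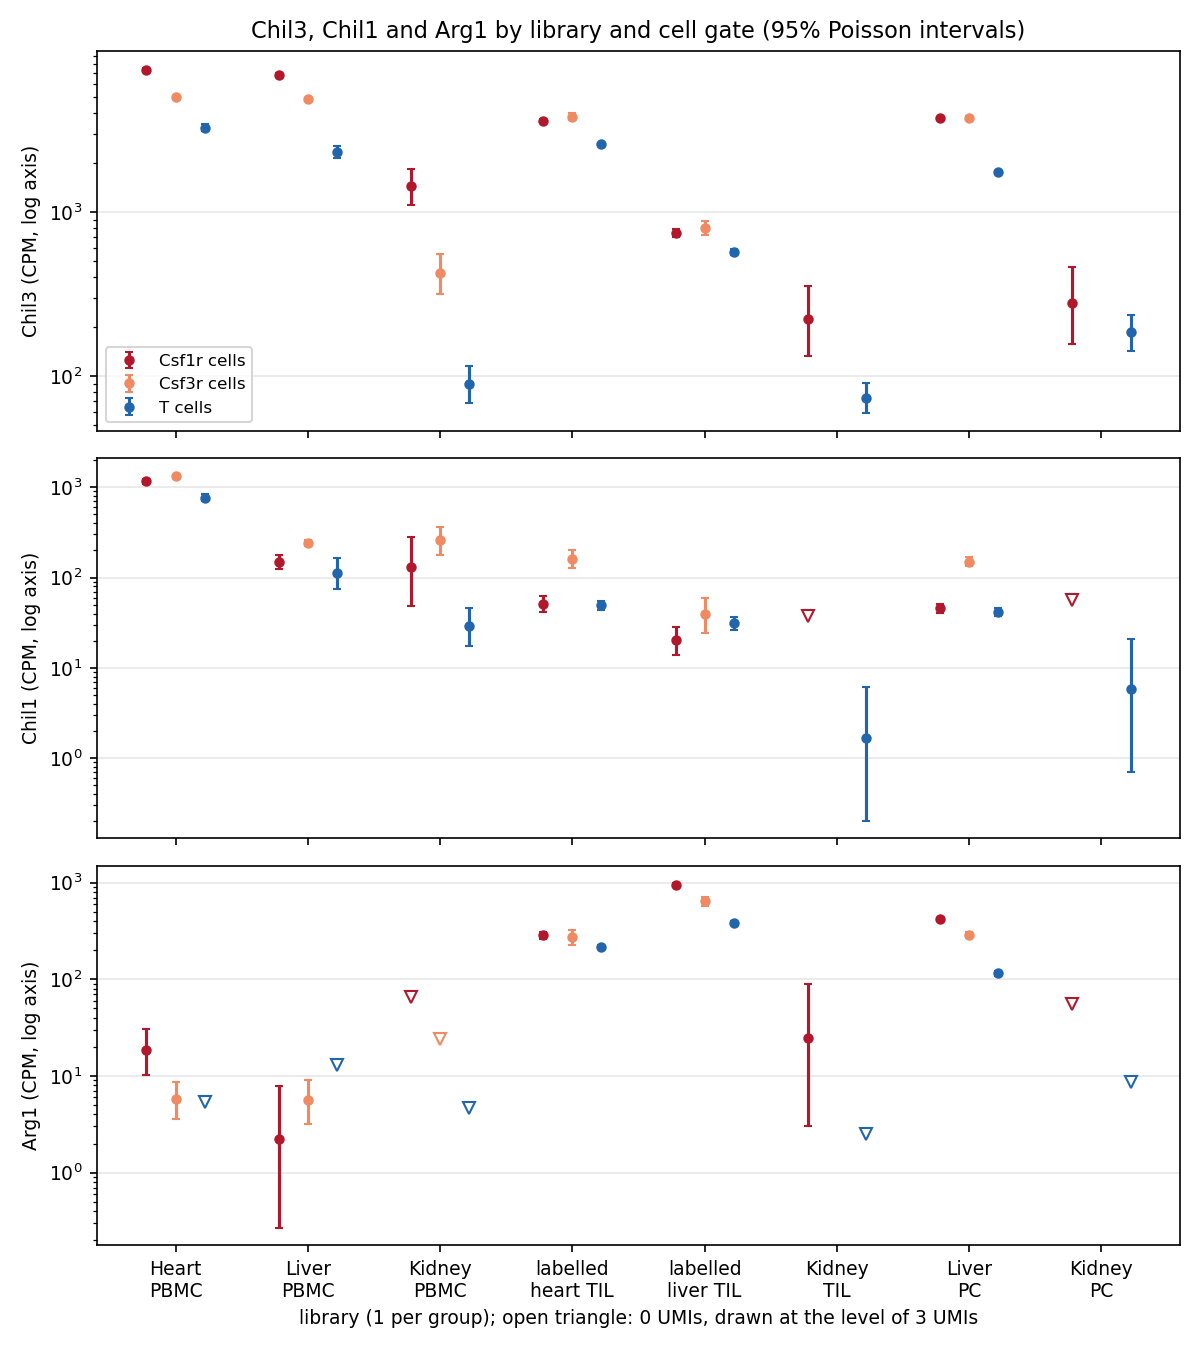
Level of Chil3, Chil1 and Arg1 (CPM, log axis) in Csf1r cells, Csf3r cells and T cells of each of the 8 libraries, with exact 95% Poisson intervals. Gates with fewer than 20 cells are not drawn, and open triangles mark 0 UMIs at the level of 3 UMIs. Chil3 fell from 7368 CPM in Csf1r cells of heart PBMC to 224 CPM in kidney TIL, whereas Arg1 was highest in the library labelled liver TIL at 948 CPM.

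Chil1 encodes a secreted chitinase-like protein of neutrophil granules and other cells, and its level followed the neutrophil gate. In Csf3r cells it was 1316, 240.4 and 260.0 CPM in heart, liver and kidney PBMC, 160.2 CPM in the library labelled heart TIL, 39.1 CPM in the library labelled liver TIL and 151 CPM in liver PC. In Csf1r cells it was 1164, 149 and 131 CPM in the PBMC libraries, 51.6 and 20.1 CPM in the libraries labelled heart TIL and liver TIL, 45.8 CPM in liver PC and 0 UMIs in kidney TIL and kidney PC, which allows up to 37.3 and 55.8 CPM (the level of 3 UMIs, used for every 0). In T cells it was 768, 114 and 29.4 CPM in the PBMC libraries and 49.5, 31.1 and 41.5 CPM in the libraries labelled heart TIL and liver TIL and in liver PC. Heart PBMC was thus the highest library in all 3 gates, and its ratio of Csf1r over T cells was 1.52, 1.31 and 4.44 (1.45 to 11.6, from 6 UMIs against 19) in heart, liver and kidney PBMC and 1.04, 0.647 and 1.10 in the libraries labelled heart TIL and liver TIL and in liver PC.

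The ratio of Csf3r over T cells for Chil1 was 1.71, 2.12 and 8.85 (4.86 to 16.5) in heart, liver and kidney PBMC. The library labelled heart TIL gave 3.24 (2.48 to 4.17), the one labelled liver TIL 1.26 and 3.63 (3.13 to 4.21) in liver PC. Set against Csf1r cells, Csf3r cells held more Chil1 in tissue, with a ratio of Csf1r over Csf3r cells of 0.322 (0.236 to 0.440) in the library labelled heart TIL and 0.304 (0.261 to 0.354) in liver PC. Among cells that held no UMI of the other receptor and fewer than 2 lymphocyte UMIs, these ratios were 0.103 and 0.106. Chil3 did not separate the gates in this way, with ratios of Csf1r over Csf3r cells of 1.47, 1.41 and 3.40 in heart, liver and kidney PBMC and 0.942, 0.931 and 1.004 in the libraries labelled heart TIL and liver TIL and in liver PC.

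The number of Chil3 UMIs per Chil1 UMI differed between gates of the same library. In liver PC it was 82.2 in Csf1r cells, 24.9 in Csf3r cells and 42.6 in T cells, and in the library labelled heart TIL 69.7, 23.8 and 52.3. In liver PBMC it was 46.2, 20.3 and 20.4, and in heart PBMC 6.33, 3.80 and 4.26. The library labelled liver TIL gave 37.1, 20.5 and 18.3, and kidney PBMC gave 11 (4.79 to 31.1), 1.625 and 3.05. Csf1r cells had the highest ratio in all 6, and Csf3r cells the lowest in 5, the library labelled liver TIL being the exception. The intervals of Csf3r and T cells overlapped in heart, liver and kidney PBMC and in the library labelled liver TIL. Those of Csf1r cells overlapped with T cells in kidney PBMC and the library labelled heart TIL, and with Csf3r cells in the library labelled liver TIL.

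Over the 7 genes, the number called higher in Csf1r cells than in T cells, at least 2-fold with at least 10 UMIs in both sums together, was read against the share of all genes called by the same rule. In heart PBMC 2 of 3 members with enough UMIs were higher, where 7.13% of all genes tested were, and 1 of the 2 was Arg1 from the 15 UMIs of 1 cell. In liver PBMC it was 2 of 3, where 14.5% were, and in kidney PBMC 2 of 2, where 15.7% were. In the library labelled heart TIL it was 0 of 5, where 4.08% were, and in the library labelled liver TIL 3 of 6, where 3.99% were. In kidney TIL it was 2 of 2, where 12.2% were, in liver PC 4 of 5, where 10.1% were, and in kidney PC 0 of 1, where 7.73% were. Beside Chil3, the call in liver PBMC was Clec10a, against 1 UMI in T cells. In kidney PBMC it was Chil1, from 6 UMIs against 19, and in kidney TIL Mgl2, against 7 UMIs in T cells. These calls beside Chil3 rest on few UMIs. The members called in the library labelled liver TIL were Arg1, Mrc1 and Clec10a, and liver PC added Chil3 to the same 3 genes.

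Csf3r cells were higher than T cells for 0 of 3 members in heart PBMC, where 6.78% of all genes were higher, for 3 of 4 in liver PBMC, where 9.91% were, and for 2 of 2 in kidney PBMC, where 11.5% were. With gates of at least 2 UMIs the ratio of Chil3 in kidney PBMC turned from 4.71 to 0.483. In the library labelled heart TIL it was 1 of 5, where 7.38% were, in the library labelled liver TIL 2 of 6, where 5.59% were, and in liver PC 4 of 5, where 9.72% were. Without cells holding UMIs of other lineages the ratio of Arg1 in liver PC turned from 2.48 to 0.319. Csf1r cells were higher than Csf3r cells for 1 of 3 members in heart PBMC, where 4.81% of all genes were, for 0 of 4 in liver PBMC, where 4.03% were, and for 1 of 2 in kidney PBMC (Chil3), where 12.1% were. No member was higher in Csf1r than in Csf3r cells among 5 each in the libraries labelled heart TIL, labelled liver TIL and liver PC, where 6.59%, 5.82% and 3.23% of all genes were. The call in heart PBMC was Arg1, whose 15 UMIs lay in 1 cell that both gates held, so it gives no difference between the gates. In the other direction 3 members were lower in Csf1r than in Csf3r cells, Arg1 in liver PBMC from 2 UMIs against 16, and Chil1 in the library labelled heart TIL and in liver PC. Of all genes 4.82%, 4.47% and 10.9% were lower in Csf1r cells of heart, liver and kidney PBMC, and 4.09%, 4.06% and 2.17% in those of the libraries labelled heart TIL and liver TIL and of liver PC. The myeloid gates shared 1627 cells.

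Arg1 encodes arginase 1, which splits arginine into ornithine and urea, and it was a gene of the tissue libraries. In Csf1r cells the library labelled heart TIL held 286 CPM (262 to 311), the one labelled liver TIL 948 CPM (903 to 996) and liver PC 419.8 CPM (405 to 435). In blood it was 18.5 CPM in heart PBMC, where all 15 UMIs lay in 1 cell, 2.20 CPM from 2 UMIs in liver PBMC and 0 UMIs in kidney PBMC, which allows up to 65.3 CPM. Kidney TIL held 2 Arg1 UMIs in Csf1r cells and kidney PC 0. Arg1 was therefore high in 3 tissue libraries and at or near 0 elsewhere.

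T cells of the same 3 libraries held Arg1 at 216 CPM, 386 CPM and 115 CPM, in the order above, and at 0 UMIs in the T cells of the other 5. Csf3r cells held it at 271 CPM, 643 CPM and 285 CPM. The ratio of Csf1r over T cells was 1.32 (1.19 to 1.46), 2.46 (2.29 to 2.64) and 3.65 (3.40 to 3.92), again in that order. After thinning, 8.72%, 20.97% and 7.39% of Csf1r cells held an Arg1 UMI, beside 7.50%, 14.4% and 4.21% of T cells. In liver PC, where hepatocytes were present, leaving out every cell with a UMI of albumin, a step added once the values were known, gave a ratio of 4.52. The 8 hepatocyte genes stood at 590, 268 and 384 CPM in Csf1r cells and at 622, 135 and 392 CPM in T cells of the 3 libraries.

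Among lectin receptors, Mrc1 had 14, 23 and 114 UMIs in Csf1r cells of the libraries labelled heart TIL and liver TIL and of liver PC, 1 in kidney TIL and 0 in the 3 PBMC libraries and kidney PC. These are levels of 7.52, 13.6 and 15.9 CPM, against 6.97, 5.99 and 4.87 CPM in T cells. The ratio of Csf1r over T cells was 1.08, 2.27 (1.23 to 4.18) and 3.26 (2.29 to 4.71). Clec10a, a galactose-type lectin of macrophages and dendritic cells, had 4, 9 and 0 UMIs in Csf1r cells of heart, liver and kidney PBMC, 10, 15 and 1 in those of the libraries labelled heart TIL, labelled liver TIL and kidney TIL, 43 in liver PC and 0 in kidney PC. Its ratio of Csf1r over T cells was 1.20, 2.32 (1.07 to 5.01) and 2.76 (1.59 to 4.96) in the libraries labelled heart TIL and liver TIL and in liver PC. Clec10a was thus the only one of these 4 sparse genes (Mrc1, Clec10a, Mgl2 and Retnla) with more than 1 UMI in blood Csf1r cells.

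Mgl2, its neighbour and a marker of a dendritic cell subset in skin, had 1 UMI in Csf1r cells of heart PBMC, 2 and 1 in those of the libraries labelled heart TIL and liver TIL, 3 in kidney TIL, 1 in liver PC and 0 in liver PBMC, kidney PBMC and kidney PC. In kidney TIL the 3 UMIs stood against 7 in T cells, a ratio of 6.35 (1.06 to 27.8). Retnla, which encodes the secreted protein Fizz1 (RELM-alpha), had 2 and 5 UMIs in Csf1r cells of the libraries labelled heart TIL and liver TIL and 0 in the other 6. In liver PC none of 10000 cells held a Retnla UMI, so that the Csf1r cells there allow a level of up to 0.417 CPM. Mgl2 and Retnla were therefore too sparse at this depth for a comparison between groups.

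Within heart and liver, as labelled, the tissue and blood Csf1r cells differed in opposite directions for Chil3 and Chil1 on one side and Arg1 and Mrc1 on the other. T cells, the background, moved the same way. Their Chil3 was 3267 and 2319 CPM in heart and liver PBMC. In the libraries labelled heart TIL and liver TIL and in liver PC it was 2589, 569 and 1765 CPM. In the same order Chil1 was 768 and 114 against 49.5, 31.1 and 41.5 CPM. Arg1 had 0 UMIs in both blood libraries against 216, 386 and 115 CPM, and Mrc1 0 against 6.97, 5.99 and 4.87 CPM. The part of this background in the Csf1r differences was not tested. Graft tissue was digested with collagenase, a step that the study does not describe for blood. Differences between tissue and blood therefore cannot be told apart from differences of preparation. Of 5 members with enough UMIs, 4 were at least 2-fold apart between the library labelled heart TIL and heart PBMC (2 higher, 2 lower), where 50.1% of all genes were apart. For the library labelled liver TIL over liver PBMC it was 4 of 5 (2 higher, 2 lower), where 33.97% were, and for liver PC over liver PBMC 3 of 5 (2 higher, 1 lower), where 30.9% were. In kidney TIL and kidney PC over kidney PBMC the 1 member with enough UMIs, Chil3, was lower, where 39.4% and 45.00% of all genes were apart. The 3 liver and kidney comparisons that use PCs or kidney TIL gave 5 of these 13 calls, and the other 8 rest on the libraries labelled heart TIL and liver TIL.

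Chil3 in Csf1r cells was 2.05-fold higher in heart PBMC than in the library labelled heart TIL and 9.21-fold higher in liver PBMC than in the library labelled liver TIL. It was 1.83-fold higher in liver PBMC than in liver PC, below the 2-fold limit, and 6.41-fold and 5.15-fold higher in kidney PBMC than in kidney TIL and kidney PC, with tissue over blood ratios of 0.156 (0.0872 to 0.266) and 0.194 (0.103 to 0.344). With the heart TIL and liver TIL labels exchanged, the tissue over blood ratio of Chil3 was 0.101 for heart and 0.523 for liver, the latter under the 2-fold limit. Chil1 was 22.6-fold, 7.39-fold and 3.25-fold higher in blood than in the library labelled heart TIL, the library labelled liver TIL and liver PC. Exchanging the TIL labels would make the Chil1 difference larger for heart and smaller for liver, with blood still higher in both. The 7 mature neutrophil genes moved the same way in Csf1r cells, at 179643 and 80366 CPM in heart and liver PBMC against 6346, 5286 and 8212 CPM in the 3 tissue libraries. Among cells with no UMI of the other receptor and fewer than 2 lymphocyte UMIs, the tissue over blood ratio of Chil3 was 0.450 for the library labelled heart TIL and 0.0928 for the library labelled liver TIL.

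Arg1 was 15.5-fold (9.30 to 27.9) higher in the library labelled heart TIL than in heart PBMC. The 15 UMIs in heart PBMC lay in 1 cell, so this interval is too narrow. The 2 UMIs in Csf1r cells of liver PBMC gave ratios of 430.4 (119 to 3557) for the library labelled liver TIL and 190.5 (52.7 to 1574) for liver PC. The former was 81.9 with a Csf1r gate of at least 2 UMIs and 129.7 with the TIL labels exchanged. Without cells that held an albumin UMI the 3 ratios were 15.4, 430.4 and 184. Mrc1 was at least 2.04-fold, 4.12-fold and 4.80-fold higher in the same 3 tissue libraries than in blood, where its sum of 0 was set to 3 UMIs. With the TIL labels exchanged, the TIL over PBMC ratios of Arg1 and Mrc1 would rise for heart and fall for liver, with tissue still higher. Clec10a did not pass the limit in any of them, with ratios of 1.09, 0.896 and 0.603 and 4 and 9 UMIs in blood.

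With the TIL and PBMC libraries of the 3 organs taken as pairs, the summed UMIs of Csf1r cells were tested by edgeR's quasi-likelihood test with the organ as a block. The test called 16.9% of 11089 genes at an adjusted p of 0.05, and 4 of the 5 members with at least 10 UMIs. Chil3 was lower in TILs by a log2 difference of -2.39 (adjusted p = 6.51e-07 by edgeR), in 3 of 3 pairs. Chil1 was lower by a log2 difference of -4.05 (adjusted p = 1.17e-15 by edgeR), in 3 of 3 pairs, with 0 UMIs against 6 in the kidney pair. Arg1 was higher by a log2 difference of 5.50 (adjusted p = 3.40e-20 by edgeR), with 2 UMIs against 0 in the kidney pair. In the heart pair its 15 UMIs in PBMC lay in 1 cell. Mrc1, at 0 UMIs in all 3 PBMC libraries, was higher in TILs with an adjusted p of 0.00158 by edgeR. It reached the limit of 10 UMIs through its TIL UMIs alone, so its call adds no support of its own. Clec10a had a log2 difference of -0.10 (adjusted p = 0.952 by edgeR). Without the heart pair the log2 differences were -3.01 for Chil3, -3.21 for Chil1 and 8.49 for Arg1, and without the liver pair -2.02, -5.16 and 3.37. Without both the kidney pair alone is left, which gives no test. Without the block the adjusted p of Chil3 was 0.134 by edgeR. For Mrc1 it was 0.305 by DESeq2, 0.185 by edgeR without the heart pair and 0.549 without the liver pair. Each organ gave 1 pair, and the block takes out the level of each organ. The test therefore measures how the TIL over PBMC difference varied between the 3 organs, a spread that is borrowed across genes. No organ was replicated. The UMIs of T cells were not put through this test.

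**Figure D2:**
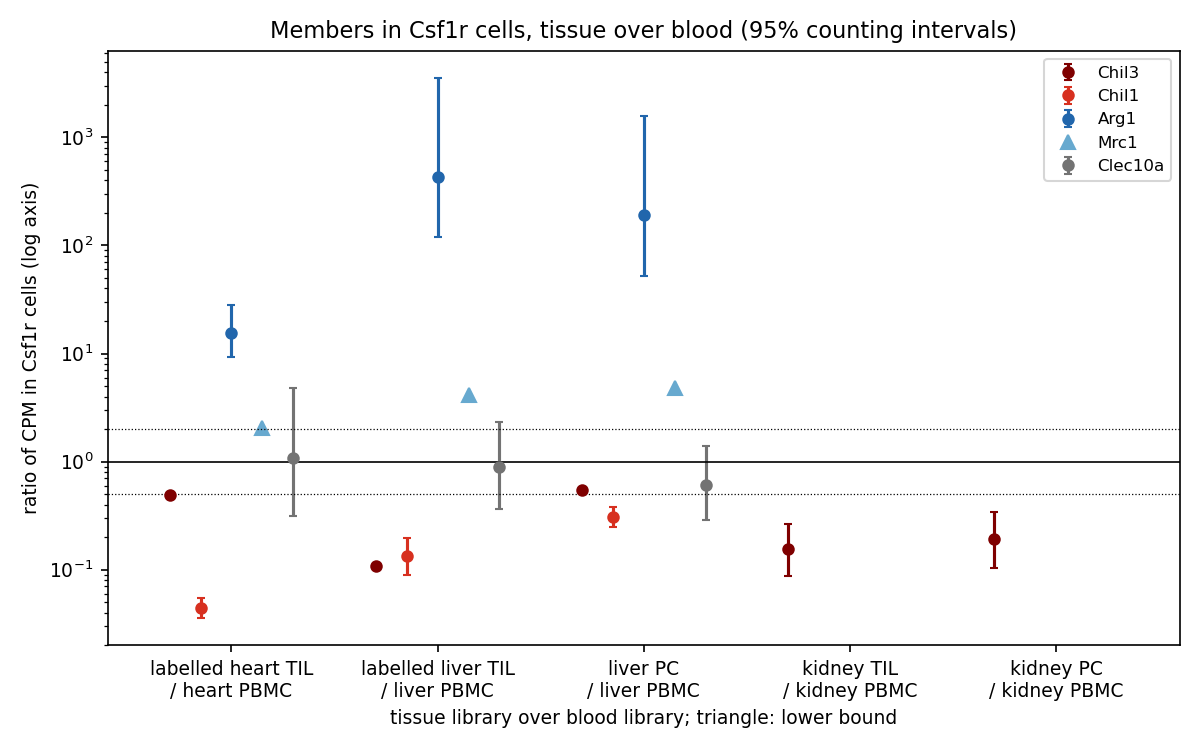
Ratio of CPM in Csf1r cells, tissue library over the blood library of the same organ (log axis), for members with at least 10 UMIs in both sums together, with 95% counting intervals. Dotted lines mark 2-fold, and triangles are lower bounds against 0 UMIs in blood. Chil3 and Chil1 lie below 1 in every comparison shown, whereas Arg1 lies at 15.5 or above. The 15.5 stands against 15 UMIs of 1 cell in heart PBMC.

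Between organs within a compartment, liver over heart PBMC differed at least 2-fold for 3 of 4 members, where 29.8% of all genes did, liver over kidney PBMC for 1 of 2, where 23.7% did, and heart over kidney PBMC for 2 of 3, where 34.3% did. In blood Csf1r cells, Chil1 was 0.128 of its heart PBMC level in liver PBMC, while Chil3 was 4.79-fold and 5.13-fold higher in liver and heart PBMC than in kidney PBMC, and Chil1 was 8.92-fold higher in heart than in kidney PBMC. The other 2 calls of liver over heart PBMC were Arg1, from 2 UMIs against the 15 of 1 cell, and Clec10a, from 9 UMIs against 4. Liver PC over kidney PC differed for 2 of 5, where 22.5% did, with Chil3 13.5-fold (8.18 to 24.1) and Arg1 at least 7.52-fold higher in liver PC. Kidney comparisons rest on 49 to 109 Csf1r cells.

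The comparisons that use the libraries labelled heart TIL and liver TIL read as follows with the labels as given. The library labelled liver TIL over the library labelled heart TIL differed for 3 of 5 members, where 16.01% of all genes did, with Arg1 3.32-fold higher, Chil3 at 0.208 and Chil1 at 0.391. The library labelled liver TIL over kidney TIL differed for 2 of 5, where 27.96% did, with Chil3 3.33-fold and Arg1 38.1-fold (10.5 to 315) higher, the latter against 2 UMIs. The library labelled heart TIL over kidney TIL differed for 3 of 5, where 25.8% did, with Chil3 16.04-fold and Arg1 11.5-fold higher and Clec10a at 0.431, against 1 UMI in kidney TIL. With the labels of both libraries exchanged, the 3 differences between them turn round by construction, to 4.82 for Chil3, 2.56 for Chil1 and 0.301 for Arg1.

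Within tissue, Csf1r cells were divided by Ly6c2, taken as a mark of inflammatory monocytes, and the complement genes C1qa, C1qb and C1qc, taken as marks of tissue macrophages. A Ly6c2 UMI without C1q was held by 96, 55 and 243 cells of the libraries labelled heart TIL and liver TIL and of liver PC, and a C1q UMI without Ly6c2 by 654, 659 and 382. The rest of the 1721, 1626 and 3165 Csf1r cells were left out. At least 2 T cell UMIs were held by 74.0%, 58.4% and 76.9% of all these Csf1r cells, and whether T cell RNA added to Ly6c2 was not tested. At least 2-fold apart were 3 of 4 members in the library labelled heart TIL, where 17.6% of all genes were, 3 of 4 in the library labelled liver TIL, where 20.6% were, and 4 of 4 in liver PC, where 18.3% were. Liver PC alone gave 4 of these 10 calls.

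Chil3 stood on the Ly6c2 side in all 3 libraries. Its levels in Ly6c2 cells and C1q cells were 6420 and 2557 CPM in the library labelled heart TIL, 1544 and 526 CPM in the library labelled liver TIL and 7046 and 1467 CPM in liver PC. The ratios were 2.51, 2.94 and 4.80 (4.48 to 5.15). Arg1 stood on the C1q side in all 3, at 151 and 322 CPM, 137 and 1212 CPM and 64.0 and 389 CPM in Ly6c2 and C1q cells, with ratios of 0.468, 0.113 and 0.165 (0.106 to 0.246).

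Mrc1 was at 4.92 CPM in Ly6c2 cells and 27.7 CPM in C1q cells of liver PC, a ratio of 0.178 (0.0202 to 0.728). Clec10a was 4.07-fold (0.696 to 16.97) higher in Ly6c2 cells of the library labelled liver TIL, from 3 UMIs against 8. Chil1 was 2.03-fold (1.11 to 3.74) higher in Ly6c2 cells of liver PC, while in the library labelled heart TIL its ratio was 0.449 from 2 UMIs against 34, and 1.78 without cells holding UMIs of other lineages. The chitinase-like Chil3 and the enzyme Arg1 thus lay at opposite ends of the same split in each of the 3 libraries.

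**Figure D3:**
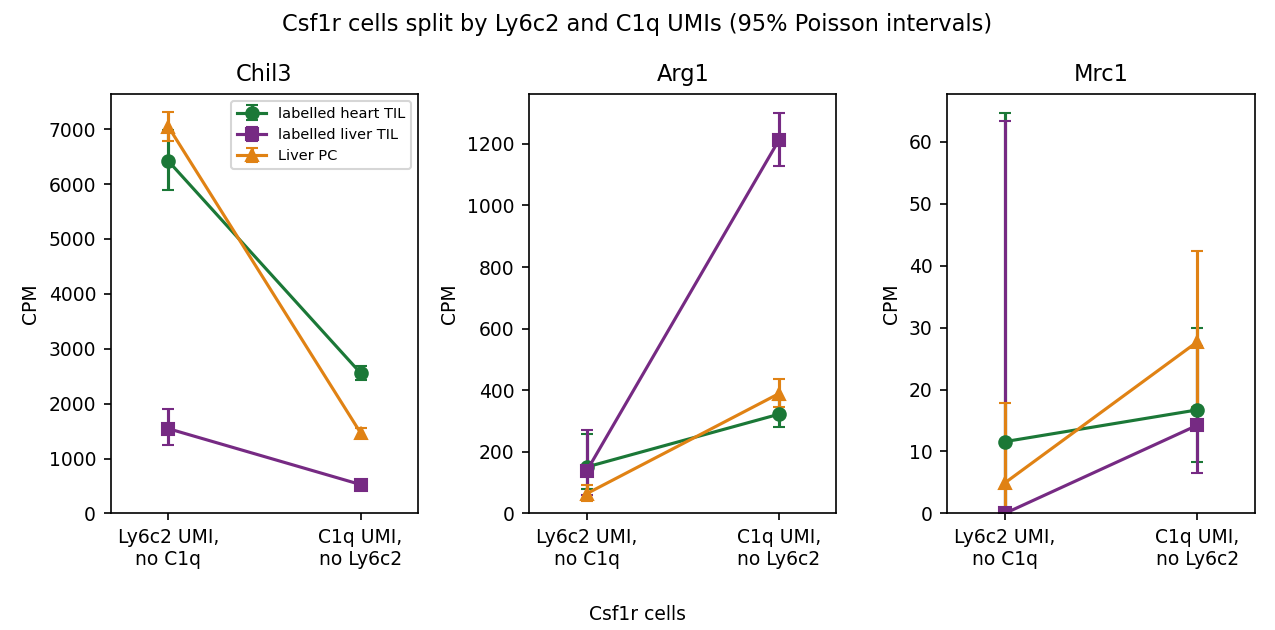
Level (CPM) of Chil3, Arg1 and Mrc1 in Csf1r cells with Ly6c2 and no C1q UMI and in those with C1q and no Ly6c2 UMI, in the libraries labelled heart TIL and liver TIL and in liver PC, with exact 95% Poisson intervals. Chil3 was lower in C1q cells in all 3 libraries (7046 and 1467 CPM in liver PC), and Arg1 was higher (64.0 and 389 CPM in liver PC).

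Cells with many UMIs of a member were counted in tissue. Cells with at least 5 Chil3 UMIs were 1613 of 9668, 146 of 9337 and 2838 of 10000 in the libraries labelled heart TIL and liver TIL and in liver PC, where they held 56.5%, 21.2% and 79.0% of Chil3 UMIs. A Csf1r UMI was held by 420, 43 and 1433 of these cells and a Csf3r UMI by 104, 19 and 457. Cells with at least 5 Arg1 UMIs numbered 102, 235 and 181 and held 40.9%, 47.6% and 70.9% of Arg1 UMIs. Of the latter cells, 17, 95 and 115 held a Csf1r UMI and 22, 0 and 39 held an albumin UMI. A total of 27, 6 and 83 cells had at least 5 UMIs of both genes, where the product of the shares gives 17.0, 3.67 and 51.4, and no depth correction was made for this count.

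Marker genes of the Chil3-high and Arg1-high cells were then compared with those of cells without the gene. Relative to cells with no Chil3 UMI, cells with at least 5 held the immature neutrophil genes at 3.84, 3.39 and 3.19 times the CPM in the libraries labelled heart TIL and liver TIL and in liver PC, with Ngp, a granule protein, at 10.7, 0 UMIs and 9.88. Mature neutrophil genes stood at 2.31, 1.03 and 2.14 times. C1q macrophage genes stood at 1.25, 0.825 and 1.75 times and Kupffer cell genes at 0.485, 0.7996 (0.0951 to 2.99, from 2 UMIs) and 0.601 times. T cell genes stood at 0.56, 0.46 and 0.49 times.

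Relative to cells with no Arg1 UMI, cells with at least 5 held C1q macrophage genes at 2.46, 2.24 and 3.38 times and mature neutrophil genes at 0.49, 0.45 and 0.45 times. Kupffer genes stood at 1.57, 5.75 (3.26 to 9.67, from 19 UMIs) and 2.24 times. C1qc stood at 2.43, 2.60 and 3.24 times and Apoe, an apolipoprotein of macrophages and hepatocytes, at 3.20, 2.43 and 4.48 times. Hepatocyte genes were also higher, at 5.94, 1.97 and 9.86 times, where all 101 UMIs behind the 1.97 were of Ass1, an enzyme that is not limited to hepatocytes, and the part of hepatocyte RNA in the Arg1 of these cells was not tested. Albumin itself had 42 UMIs in the Arg1-high cells of the library labelled heart TIL, 146 in those of liver PC and 0 in those of the library labelled liver TIL, where Arg1 was highest. Median UMIs were 1060.5, 1056 and 2341 in Arg1-high cells against 787, 725 and 1486 in cells without Arg1.

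Kupffer cell genes were higher in Mrc1 cells too. Cells with at least 1 Mrc1 UMI numbered 64, 67 and 161, and in liver PC they held the Kupffer genes at 14.7 times the CPM of other cells, with Clec4f, a lectin of Kupffer cells, at 21.8, Vsig4 at 22.0, Folr2 at 13.2, Marco at 14.5 and Cd5l at 12.5. In the library labelled heart TIL the Kupffer list stood at 5.75 times and in the library labelled liver TIL at 5.51 (2.16 to 11.7) from 7 UMIs, with Clec4f at 0. C1q macrophage genes stood at 1.65, 2.92 and 3.15 times in Mrc1 cells of the libraries labelled heart TIL and liver TIL and of liver PC. Endothelial genes were also higher in Mrc1 cells of the library labelled heart TIL and of liver PC, at 7.27 and 6.76 times, with Eng at 7.37 and 11.4. In the library labelled liver TIL they stood at 0.63 times (0.170 to 1.61, from 4 UMIs), with Eng at 1.43.

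**Figure D4:**
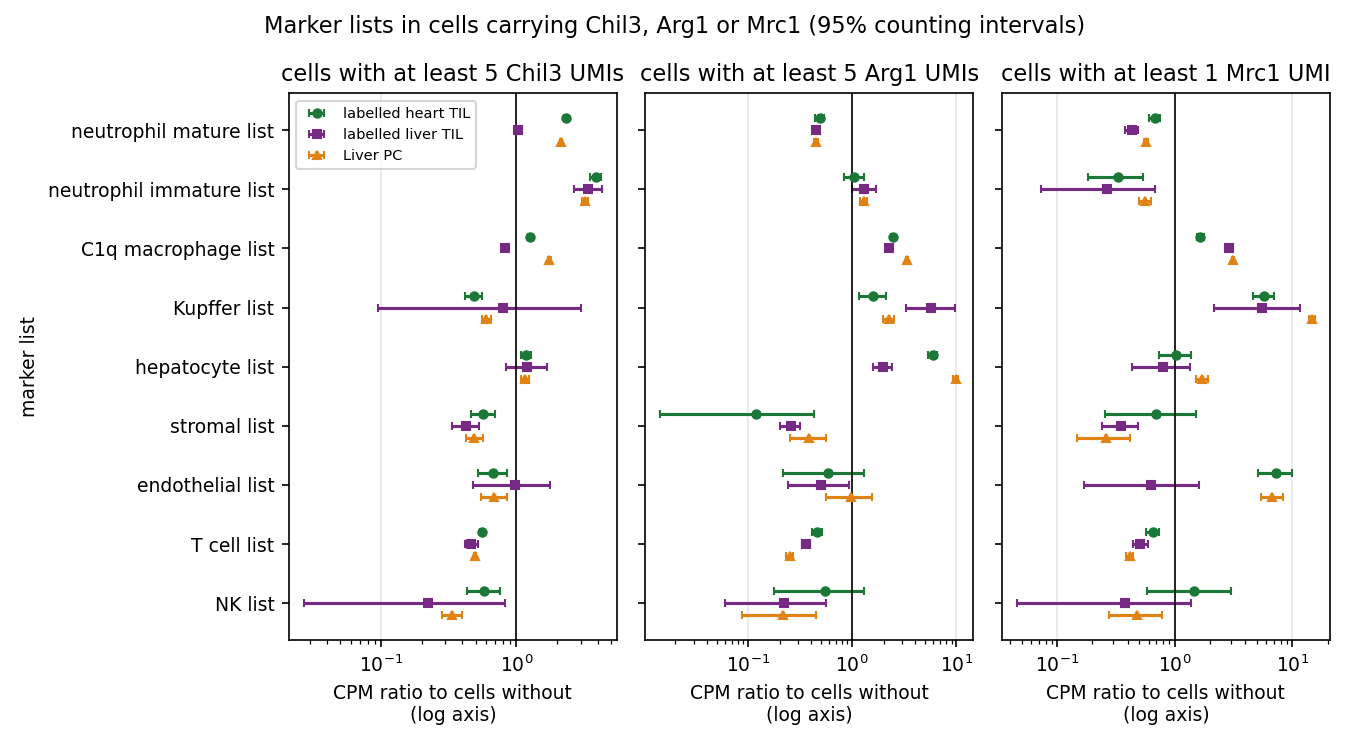
Ratio of the CPM of marker lists (log axis) in cells with at least 5 Chil3 UMIs, at least 5 Arg1 UMIs or at least 1 Mrc1 UMI to that in cells with none of the gene, in the libraries labelled heart TIL and liver TIL and in liver PC, with 95% counting intervals. Immature neutrophil genes stood at 3.19 to 3.84 times in Chil3-high cells, C1q macrophage genes at 2.24 to 3.38 times in Arg1-high cells and Kupffer genes at 5.51 to 14.7 times in Mrc1 cells.

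Within Csf1r cells thinned to 500 UMIs, pairs of members were set beside the product of their shares. Chil3 was found in 687 of 805, 733 of 903, 1178 of 1721 and 2016 of 3165 of these cells in heart PBMC, liver PBMC, the library labelled heart TIL and liver PC, so no pair with Chil3 could there be met 2-fold more often than the product. In the other pairs and libraries none was, in 5 or more cells. Most of these could not reach that count, because 1 or both members were found in fewer than 5 thinned cells. Arg1 and Clec10a, for example, met in 3 cells of liver PC, where the product gives 0.887. Chil3 and Arg1 met in 103, 80 and 148 cells of the libraries labelled heart TIL and liver TIL and of liver PC, where the product gives 103, 85.4 and 149. Chil3 and Chil1 met in 289 cells of heart PBMC and 64 of liver PBMC, where the product gives 304 and 64.9. Where Chil3 was found in fewer cells (407 of 1626 in the library labelled liver TIL), the pair of Chil3 and Arg1 had room for a higher count.

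Upstream of the members, the cytokines had few UMIs. In Csf1r cells Il4 had 1, 1 and 5 UMIs in the libraries labelled heart TIL and liver TIL and in liver PC, Il13 had 1 UMI in the library labelled heart TIL, and both were at 0 in the other libraries. In T cells Il4 had 2, 1 and 1 UMIs in the TIL libraries in the order of the labels, 6 in liver PC, 1 in kidney PBMC and 0 in the other 3, and Il13 had 1 in the library labelled liver TIL, 2 in liver PC and 0 in the other 6. The receptor chain Il4ra was measured in Csf1r cells of every library, at 129, 140.0 and 43.5 CPM in heart, liver and kidney PBMC. It stood at 41.9, 125 and 49.8 CPM in the TIL libraries in the same order of labels. In liver PC it was 57.7 CPM and in kidney PC 55.8 CPM, which is the level of 3 UMIs there. The kidney values rest on few UMIs. Il4ra was 3.08-fold lower in the library labelled heart TIL than in heart PBMC and 2.42-fold lower in liver PC than in liver PBMC, at a ratio of 0.893 in the library labelled liver TIL. With the TIL labels exchanged, 125 CPM would stand against 129 CPM for heart and 41.9 CPM against 140.0 CPM for liver, so the drop would move to liver. Its partner chain Il13ra1 was lower in tissue in all 3, at 0.191, 0.428 and 0.312 of blood, while Stat6 was at 0.555, 0.746 and 0.754. Of 12 genes of this axis, 5, 8 and 10 had enough UMIs, of which 1, 1 and 2 were higher and 2, 3 and 5 lower in tissue, with a median log2 ratio of -0.85, -0.29 and -0.84. The median over all genes tested was 0.68, 0.12 and 0.26, and 50.1%, 33.97% and 30.9% of all genes were at least 2-fold apart.

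Other genes known from alternative activation were compared in the same way. Of 18, 10, 8 and 12 had enough UMIs for the libraries labelled heart TIL and liver TIL and for liver PC, of which 7, 5 and 8 were higher and 0, 1 and 0 lower, with a median log2 ratio of 2.41, 1.76 and 2.19. These counts stand beside the same 50.1%, 33.97% and 30.9% of all genes that were apart. Tgm2, a transglutaminase, was 8.43-fold, 14.7-fold and 9.77-fold higher. The chemokine Ccl24 was at least 8.01-fold and at least 10.4-fold higher in the library labelled heart TIL and in liver PC, with 3 UMIs in the library labelled liver TIL. Il10, a cytokine that dampens inflammation, was 10.3-fold (2.69 to 87.2, against 2 UMIs in blood), at least 5.02-fold and at least 8.08-fold higher. Ccl22 and Cd209f had 0 UMIs in Csf1r cells of every library, and Ear2, a ribonuclease, was 7.01-fold lower in the library labelled liver TIL.

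Genes of classical activation gave unlike counts. Of 16, 13, 13 and 15 had enough UMIs, of which 6, 9 and 9 were higher and 2, 0 and 2 lower, with a median log2 ratio of 0.68, 2.20 and 1.74. In the library labelled heart TIL the median was that of all genes tested (0.68), and 8 of 13 apart stood beside 50.1% of all genes. In the library labelled liver TIL and in liver PC 9 of 13 and 11 of 15 were apart, beside 33.97% and 30.9%. Cxcl9, a chemokine raised by interferon gamma, was 76.2-fold, 30.6-fold and 32.0-fold higher, and Nos2, which competes with arginase for arginine, was at least 19.2-fold and at least 6.48-fold higher in the library labelled liver TIL and in liver PC, with a ratio of 1.25 (0.507 to 3.49) in the library labelled heart TIL. Il1b was at 0.232, 0.948 and 0.742 of blood. The comparisons for liver share their PBMC library.

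Arg1 belongs to a list of 12 arginine genes, of which 9, 8 and 12 had enough UMIs and 5, 5 and 5 were higher and 1, 1 and 1 lower in tissue, Arg1 included, with a median log2 ratio of 1.61, 1.33 and 0.78, beside the 50.1%, 33.97% and 30.9% of all genes that were apart. Ass1, which makes argininosuccinate and is also a hepatocyte gene, was 9.55-fold, 6.71-fold and 4.47-fold higher, and the spermidine synthase Srm was 6.88-fold, 2.53-fold and 3.26-fold higher. Arg2, the second arginase and the gene that was lower, was 16.4-fold, 4.53-fold and 7.66-fold higher in blood, so Arg1 and Arg2 differed in opposite directions between tissue and blood.

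Of the family genes outside the 7, Retnlg had the most UMIs in Csf1r cells. Retnlg, a resistin-like gene next to Retnla that neutrophils express, had 23135, 5101 and 179 UMIs in Csf1r cells of heart, liver and kidney PBMC, 947, 348 and 1 in those of the TIL libraries in the same order of labels, 4116 in liver PC and 1 in kidney PC. Retnla and Retnlg shared 0 of the 50-base stretches tested. Among lectins, Clec4f had 55 UMIs in the library labelled heart TIL, 298 in liver PC and 0 in the other 6.

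Across the 16 units made of the Csf1r and Csf3r cells of the 8 libraries, which share libraries, cells and depth, the genes most like each member by Pearson's r of log2(CPM + 10) were named as a description. For Chil3 they were Ifitm2 (0.946), Pilra (0.918) and Sat1 (0.914), and for Chil1 Mmp8 (0.982), Asprv1 (0.976) and Rnd1 (0.975). For Arg1 they were Stab1 (0.988), Ighg2b (0.972) and Fblim1 (0.972), and for Mrc1 Ltc4s (0.968), Procr (0.963) and Ccdc92 (0.958). Those of Clec10a were RP24-167A12.1 (0.930), Sik3 and Itpr1, while Retnla and Mgl2 had too few UMIs for this measure. Over the 14 units with at least 20 cells, r was 0.867, 0.830 and 0.818 for the 3 genes named for Chil3.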

How the data were processed

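The authors made the deposited count tables with Microwell-seq of polyA RNA, in which cells are caught in microwells with barcoded beads, and with Drop-seq core tools and STAR on GRCm38, discarding multi-aligned reads and merging UMIs that differed at a single base. Per the submitters' processing notes bcl2fastq was also used, and strand handling is not given in the sources used here. The deposited values are UMI counts that were not normalized, for 10000 barcodes in each of 8 libraries.

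For each gate the UMIs of a gene were divided by all UMIs of the gated cells to give CPM, with exact Poisson intervals at 95%, and ratios of CPM had exact conditional intervals at 95%. A member was called where the CPM differed at least 2-fold with at least 10 UMIs in both sums together, and a sum of 0 was set to 3 UMIs, so that the ratio is a bound. With 1 library per group these comparisons had no test. TIL over PBMC was tested over the 3 organs as pairs, a choice made after the data were seen, on UMIs of Csf1r cells summed per library (genes with at least 10 UMIs over the sums, TMM scaling, organ as a block, Benjamini-Hochberg adjustment). The deviations of both libraries of an organ from the compartment means correlated over genes at 0.314, 0.196 and 0.285 for heart, liver and kidney. T cells needed at least 2 UMIs over Cd3d, Cd3e, Cd3g, Trac, Trbc1 and Trbc2, and B cells at least 2 over Cd79a, Cd79b and Ms4a1 with no CD3 gene. Shares of cells were taken after thinning each cell to 500 UMIs (seed 0). No limit was set on mitochondrial UMIs and no doublet caller was run. In its place cells with UMIs of other lineages were left out as an alternative. Alternatives with a T gate of at least 5 UMIs and without cells holding an Alb UMI were chosen after the data were seen, and the members and gene lists were chosen with earlier results of these data known.

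Named in the text were the 7 members, up to 5 genes with the most UMIs in Csf1r cells from each list and list genes at 0 UMIs, the 3 genes most like each member with at least 100 UMIs over 16 units, and family members. Nos2, Il4 and Il13, which this rule does not take, were added after their values were seen. One of the marker lists is not reported here. Sequences were taken from RefSeq (GRCm38.p6), where windows of 5 of the 7 members were matched by symbol, and gene positions from GENCODE M21 on GRCm38. The scripts were checked on simulated data. Python 3.11.15, numpy 2.4.6, scipy 1.17.1, pandas 2.3.3 and matplotlib 3.10.9 were used, with edgeR 4.0.16 and, as an alternative, DESeq2 1.42.0.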

Additional observations from a re-analysis of the deposited data

Results flagged for a closer look

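Chil1 was called by size in opposite directions in the split of Csf1r cells by Ly6c2 and C1q. Its CPM in Ly6c2 cells was 0.449 of that in C1q cells in the library labelled heart TIL, from 2 UMIs against 34, and 2.03-fold higher in Ly6c2 cells of liver PC. Without cells holding UMIs of other lineages the former was 1.78. The 2 UMIs are too few to settle a direction in the library labelled heart TIL. The difference between the libraries was not tested.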

How the results depend on the processing

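With the organ as a replicate block, 4 members passed in TIL over PBMC over 3 pairs, 3 without the block, 3 by DESeq2, 4 with RLE size factors, without a filter on UMIs or with the TIL labels exchanged, and 3 to 4 with an organ left out. Mrc1, among the 4 with the block, had UMIs in TILs only. Of all genes 1871 passed with the block, 872 without it, 531 by DESeq2 and 494 to 2000 with an organ left out. Members called higher in all comparisons together were 15 (Csf1r over T), 12 (Csf3r over T) and 2 (Csf1r over Csf3r, with 3 lower), and members apart in either direction were 13 (tissue over blood), 16 (between organs) and 10 (Ly6c2 over C1q), and no pair of members was counted together. Of 783 ratios of called members recomputed under the alternatives, 706 kept the call, 6 changed direction and 72 fell under the size limit, 1 of the 6 among them. Part of these could not change. The 71 with no filter on UMIs and the 42 without the libraries labelled heart TIL and liver TIL repeat the same sums. A limit of 10% mitochondrial UMIs kept all 71, and a fold of 3 cannot change a direction. Csf1r over Csf3r gave 1 with a floor of 1000 UMIs, 5 with myeloid gates of at least 2 UMIs and 4 with no filter on UMIs. Ly6c2 over C1q gave 4 with gates of at least 2 UMIs and 6 without cells holding UMIs of other lineages. Csf3r over T gave 7 with the mean of per-cell CPM. A fold of 3 gave 7, 4 and 5 for Csf1r over T, Csf3r over T and Ly6c2 over C1q. Without the libraries labelled heart TIL and liver TIL, tissue over blood gave 5, between organs 8, Ly6c2 over C1q 4, Csf1r over T 12, Csf3r over T 9 and Csf1r over Csf3r 2. Another thinning seed gave 1 pair. Chil3 in Csf3r over T cells of kidney PBMC changed to 0.483 with gates of at least 2 UMIs. Without cells holding UMIs of other lineages, Arg1 in Csf3r over T cells of liver PC changed to 0.319 and Chil1 in Ly6c2 over C1q cells of the library labelled heart TIL to 1.78. With the heart TIL and liver TIL labels exchanged, their ratios became 4.82 for Chil3, 2.56 for Chil1 and 0.301 for Arg1. The causes of the other changes were not tested. Mgl2 and Retnla had at most 5 UMIs in Csf1r cells of any library, and in those of kidney PBMC 3 UMIs are 65.3 CPM, so lower levels were not detectable there.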

Other observations

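In liver PC, 16 cells held at least 5 Chil1 UMIs. Relative to cells without Chil1 they held mature neutrophil genes at 6.84 times the CPM and 5 stromal genes at 62.6 times (55.0 to 71.0). Of the 278 stromal UMIs in these cells, 229 were Mgp, a matrix protein, at 259.96 times, and 11 were Dcn, while Csf1r had 5 UMIs at 0.46 times. Cells with at least 1 Chil1 UMI held Mgp at 5.86, 4.33 and 8.38 times in the libraries labelled heart TIL and liver TIL and in liver PC, beside S100a9 at 4.01, 3.25 and 5.16 times. These cells were picked after their values were seen.

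Barcodes with fewer than 500 UMIs were outside every comparison. In kidney PC they held 34 Mgl2 UMIs and 12 Retnla UMIs, and in kidney TIL 14 and 6, against 3 and 2 and 13 and 2 in the cells of these libraries with at least 500 UMIs.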
